A study of Mus musculus with 6 samples.

Results

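The genes described are the core of the circadian clock and its outputs, taken by symbol from the gene table of a single-nucleus RNA-seq study of the prelimbic cortex, the PL region of the medial prefrontal cortex. All 10 members, Arntl, Clock, Per1, Per2, Per3, Cry1, Cry2, Nr1d1, Nr1d2 and Dbp, were found, each in 1 row of a table of 32285 genes. The animals of every group were male C57BL/6 mice, labelled P21 and described in the methods as about 4 months old at collection. Run males had been raised until weaning by dams given a running wheel from postpartum day 2 to day 21, and Sed males by dams in standard cages. From weaning both were kept group-housed (GH) or in social isolation (SI), and no offspring had a wheel. Cohort 1 gave 1 Run GH and 1 Sed GH library, from males tested in the tube test, with nuclei taken a day after their last test. Per the paper, these were males of top and bottom rank in their own group. Cohort 2 gave 1 library of each maternal group in each housing, from males with no behavioral testing. Each of the 6 libraries was pooled from 3 males that were not brothers, so the spread between libraries is a spread between pools. Light was on for 12 hours a day from hour 6, and the hour at which tissue was collected is not given in the sources used here.

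The clock is a feedback loop of transcription that runs in nearly every cell over a daily cycle. The proteins made from Arntl (BMAL1) and Clock bind E-box sequences as a pair and drive the Per and Cry genes, whose products return to the nucleus and repress that pair. The same pair drives Nr1d1 and Nr1d2, which encode the REV-ERB repressors that act on Arntl through RORE sequences, and Dbp, which encodes a factor that acts through D-box sequences. Because Arntl mRNA and the mRNAs of E-box genes such as Dbp peak at nearly opposite times of day, their relative level is commonly read as a sign of clock phase. In brain, glucocorticoid hormone, neuronal activity and temperature also act on some of these genes, Per1 above all.

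The promoters that carry a motif of this loop are shown, since the loop runs through them. RefSeq promoter windows were present for 9 of the 10 members, and the 250 bases before each start were searched on both strands for the E-box CACGTG, the D-box TTATGTAA and the RORE consensus. The lines give each window 5′ to 3′ on the strand of its gene, in GRCm38.p6, with the motif in capitals. Per1 (chr11:69098699-69098948, plus strand) held an E-box whose first base lay at -166 from the start, Cry1 (chr10:85185055-85185304, minus strand) an E-box at -60, and Per3 (chr4:151044666-151044915, minus strand) a pair of D-boxes at -205 and -158.
Per1: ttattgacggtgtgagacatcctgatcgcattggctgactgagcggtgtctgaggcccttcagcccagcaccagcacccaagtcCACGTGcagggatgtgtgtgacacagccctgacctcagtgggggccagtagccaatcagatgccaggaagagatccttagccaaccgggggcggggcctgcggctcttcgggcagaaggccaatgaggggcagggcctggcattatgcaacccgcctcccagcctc
Cry1: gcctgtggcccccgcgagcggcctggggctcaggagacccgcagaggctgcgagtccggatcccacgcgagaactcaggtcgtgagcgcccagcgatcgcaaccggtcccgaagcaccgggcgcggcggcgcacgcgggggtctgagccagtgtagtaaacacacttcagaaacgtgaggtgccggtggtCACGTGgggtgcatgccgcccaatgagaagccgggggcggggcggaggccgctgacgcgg
Per3: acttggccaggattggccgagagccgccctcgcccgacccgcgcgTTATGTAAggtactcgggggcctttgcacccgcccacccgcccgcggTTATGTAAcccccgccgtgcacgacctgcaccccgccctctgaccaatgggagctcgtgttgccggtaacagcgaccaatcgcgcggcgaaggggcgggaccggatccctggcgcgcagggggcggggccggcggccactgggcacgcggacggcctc
Among all 32851 windows of this length, 6.02% held the E-box, 0.819% the D-box and 0.295% the RORE, which was in none of the 13 member windows. These matches describe the windows printed and no binding was measured.

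The libraries held 19134955 to 188952936 UMIs (unique molecular identifiers, each counting 1 captured mRNA molecule), of which 19.0 to 61.9% lay in the 4997 to 9936 nuclei kept per library. Cohort 1 was the deeper and the more diffuse of the cohorts: its libraries had median UMIs of 5586 and 6250 per nucleus against 1637 to 4033 in cohort 2, but only 32.9% and 19.0% of their UMIs in kept nuclei against 56.4 to 61.9%. The cohort 2 Sed GH library was the shallowest throughout. Clusters were named from fixed markers as pyramidal-like (33652 nuclei), inhibitory-like (4001) and astrocyte-like (1352), with smaller classes of oligodendrocyte-like (224) and microglia-like nuclei (215), and are called by these names without the suffix here. The 8 astrocyte markers summed to 9646 to 11323 CPM (UMI counts-per-million) in astrocytes and 387 to 447 in pyramidal nuclei, and the 6 inhibitory markers to 5820 to 8646 in inhibitory and 34.2 to 193 in pyramidal nuclei, with every marker of these lists detected in every one of these classes. The 6 pyramidal markers summed to 1330 to 1446 in pyramidal nuclei but also to 355 to 573 in astrocytes and 181 to 372 in inhibitory nuclei. RNA free in the suspension was estimated, as an upper limit, to make up 22.8 to 41.9% of the UMIs of pyramidal nuclei, with 40.2% and 41.9% in cohort 1. A pair of libraries shared 5 to 22 cell barcodes.

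The activators are given first, in pyramidal nuclei. Levels are CPM relative to all UMIs summed over the nuclei of a class in a library, and are compared for 1 gene at a time, since genes differ in how well a 3′ assay captures them. Arntl stood at 104 and 107 CPM in the cohort 1 Run GH and Sed GH libraries, and at 79.0, 88.6, 70.4 and 81.3 CPM in cohort 2, in the order Run GH and Sed GH, then Run SI and Sed SI, which is kept throughout. All 4 cohort 2 libraries were below both cohort 1 libraries. How many of all genes separate by cohort in this way was not counted, for Arntl or for the members that follow. Clock stood at 91.0 and 88.8 CPM in cohort 1 and at 128, 115, 126 and 115 CPM in cohort 2, so that its 4 cohort 2 values lay above both cohort 1 values, a difference that did not pass the cohort test given further on.

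The Per and Cry repressors follow, and of these Per1 and Cry2 passed the cohort test. Per1, a gene that responds fast to light, activity and hormones, stood at 28.9 and 28.4 CPM in cohort 1 Run GH and Sed GH and at 17.3, 20.4, 13.5 and 20.98 CPM in cohort 2. Per2 stood at 39.3 and 34.6 CPM in cohort 1 and at 32.0, 31.0, 23.2 and 31.3 CPM in cohort 2. Both were highest in cohort 1 and lowest in the Run SI library. Per3, the family member whose loss leaves the mouse clock nearly intact, was lowest in cohort 1, with 41.4 and 42.7 CPM in cohort 1 and 75.8, 50.9, 61.4 and 65.3 CPM in cohort 2. Cry1 was sparse, at 10.3 and 7.29 CPM in cohort 1 and 10.5, 12.9, 10.2 and 14.1 CPM in cohort 2, with overlapping cohorts. Cry2 stood at 90.5 and 87.6 CPM in cohort 1 and at 61.8, 70.8, 61.6 and 74.8 CPM in cohort 2, again with no overlap.

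The REV-ERB genes were both lower in cohort 2, whereas Dbp was not. Nr1d1 stood at 13.2 CPM in both cohort 1 libraries and at 8.51, 5.58, 8.08 and 7.30 CPM in cohort 2. Nr1d2 stood at 49.7 and 49.1 CPM in cohort 1 and at 36.5, 30.2, 38.6 and 38.0 CPM in cohort 2. The lowest value of each was in the cohort 2 Sed GH library, where Nr1d1 rested on 54 UMIs. Dbp stood at 13.1 and 14.3 CPM in cohort 1 and at 17.8, 11.6, 16.2 and 13.1 CPM in cohort 2, a range that included both cohort 1 values. In barcodes with fewer than 100 UMIs, which hold free RNA and no nucleus, Per1 (29.7 to 63.9 CPM), Nr1d1 (32.4 to 46.4 CPM), Nr1d2 (44.1 to 84.9 CPM) and Dbp (31.5 to 108 CPM) were higher than in pyramidal nuclei in 6 of 6 libraries, and Arntl in 0 of 6. Calls that changed after subtraction of free RNA are named beside the comparisons or counted in the closing sections.

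**Figure D1:**
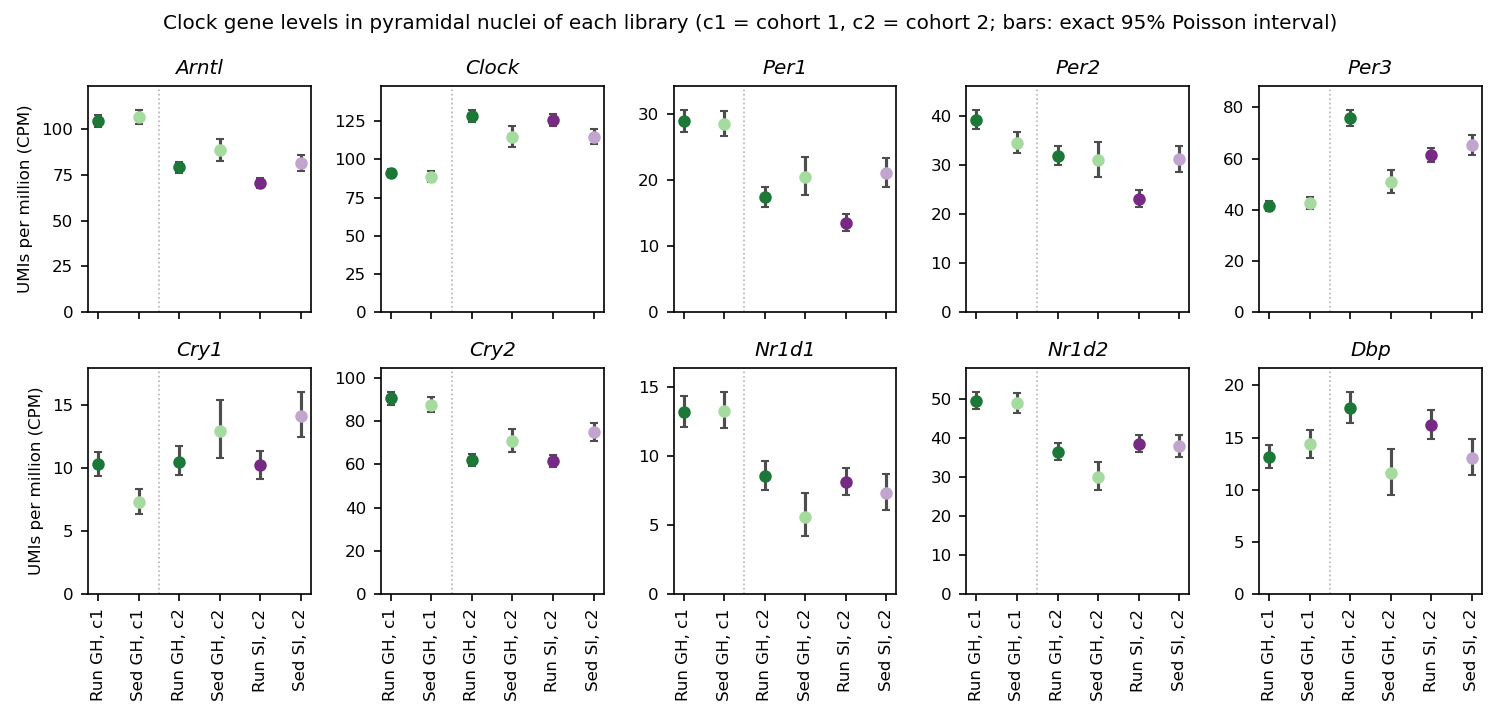
Level of each clock gene in pyramidal nuclei, in CPM (y axis), for the 6 libraries (x axis, cohort 1 left of the dotted line). Points are single libraries and bars their exact 95% Poisson interval, which covers counting error only. Arntl, Per1, Per2, Cry2, Nr1d1 and Nr1d2 sit lower in all 4 cohort 2 libraries than in both cohort 1 libraries, while Clock and Per3 sit higher. The share of all genes that separate in this way was not counted. In the edgeR cohort test 17.9% of 17954 genes were called lower and 20.2% higher.

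Most clock genes were more abundant in astrocytes than in pyramidal nuclei. Of the 10 members tested, 7 were higher in astrocytes (Dbp, Nr1d1, Per3, Nr1d2, Cry2, Per1 and Per2), 1 was lower (Clock), and Arntl and Cry1 did not pass the test, against 27.4% of all 15973 genes tested called higher and 26.4% called lower. The test was edgeR's quasi-likelihood test on UMIs summed per library and class, with library as a block and Benjamini-Hochberg adjustment over all genes, called at an adjusted p under 0.05. The median log2 difference was 0.66 over the members and 0.05 over all genes. All class comparisons in which pyramidal nuclei are the reference share the same pyramidal sums.

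Dbp was the member with the largest fitted excess in astrocytes, though its SE range overlapped those of Nr1d1 and Per3. It stood at 34.9 and 44.5 CPM in cohort 1 Run GH and Sed GH and 87.3, 11.1, 50.6 and 56.3 CPM in cohort 2, where the value of 11.1 was a single UMI in the Sed GH library. The 5 other libraries were all above the highest pyramidal level of Dbp, and the fitted log2 difference was 1.57 ± 0.18 (SE, 6 libraries; edgeR adjusted p = 1.75e-07). Free RNA carried Dbp at 44.6 and 31.5 CPM in cohort 1 and at 77.6, 92.6, 74.4 and 108 CPM in cohort 2. Its estimated upper share was 13.1 to 37.5% of astrocyte UMIs, and after its subtraction from both classes the fitted difference was 8.75 for Dbp and 10.5 for Nr1d1. These give no usable size, as free RNA held more of both genes than pyramidal nuclei did in 6 of 6 libraries. Nr1d1 stood at 20.6 to 39.7 CPM in the 6 astrocyte sums, with no overlap with pyramidal nuclei and a log2 difference of 1.37 ± 0.18 (adjusted p = 1.29e-06). Nr1d2 stood at 75.0 to 121.8 CPM, also without overlap, with a log2 difference of 1.17 ± 0.13 (adjusted p = 1.12e-07).

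Of the Per genes, Per3 showed the clearest difference between these classes. Its astrocyte levels were 111.7 and 102.2 CPM in cohort 1 and 200.02, 199.8, 188 and 243 CPM in cohort 2, each well above the pyramidal level of the same library (log2 difference 1.36 ± 0.13; edgeR adjusted p = 4.74e-09). Per1 stood at 34.9 and 33.7 CPM in cohort 1 and 40.0, 99.9, 31.9 and 52.0 CPM in cohort 2 (log2 difference 0.63 ± 0.21; edgeR adjusted p = 0.0152). The Per1 call was lost with another normalization (RLE factors) and without either GH library of cohort 2, with adjusted p up to 0.0594. Per2 differed by 0.55 ± 0.16 (adjusted p = 0.0073), and its call was lost with DESeq2, with a minimum of 1000 genes per nucleus, after subtraction of free RNA and without the Sed SI library, with adjusted p up to 0.154. Cry2, which with Cry1 forms the repressing partner of the Per proteins, stood at 124 to 178 CPM in astrocytes and differed by 0.69 ± 0.13 (adjusted p = 0.000116).

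The activators did not share the astrocyte excess. Clock was lower in astrocytes in 6 of 6 libraries, at 56.3 to 76.7 CPM, with a log2 difference of -0.78 ± 0.14 (edgeR adjusted p = 7.79e-05). Arntl differed by -0.10 ± 0.15 (adjusted p = 0.604) and was higher in astrocytes in 3 of 6 libraries. Cry1, with 43 UMIs in all astrocytes, differed by 0.05 ± 0.25 (adjusted p = 0.929). With RLE factors the median of all genes in this comparison moved by -0.15 on the log2 scale, and the directions of the 8 called members held.

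Inhibitory nuclei held less RNA of most clock genes than pyramidal nuclei did. There 7 members were lower (Per3, Arntl, Per2, Cry2, Per1, Dbp and Nr1d1) and 1 was higher (Cry1), against 24.4% of 15684 genes called lower and 28.7% called higher, and the median log2 difference was -0.56 over the members and 0.06 over all genes. Arntl stood at 61.6 and 61.3 CPM in inhibitory nuclei of cohort 1 and at 41.8, 47.5, 31.6 and 45.4 CPM in cohort 2, below the pyramidal level in every library (log2 difference -1.02 ± 0.06; edgeR adjusted p = 7.84e-11). Per3 stood at 19.4 to 27.2 CPM and was lower by a log2 difference of -1.34 ± 0.11 (edgeR adjusted p = 5.71e-09). These differences held under all 14 alternatives, as did those of Per2 (-0.83 ± 0.09) and Cry2 (-0.60 ± 0.06).

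The remaining inhibitory differences were smaller or less even. Per1 differed by -0.58 ± 0.10, Dbp by -0.53 ± 0.15 and Nr1d1 by -0.45 ± 0.15. As plain log2 ratios within a library, Dbp was at -0.75 and -1.31 in cohort 1 Run GH and Sed GH and at -0.35, 0.19, 0.02 and -0.07 in cohort 2, with both cohort 1 libraries below all 4 of cohort 2. The Dbp and Per1 calls were lost after subtraction of free RNA (adjusted p = 0.319 and 0.144), where Dbp turned to 3.32, and the Nr1d1 call was lost without the cohort 2 Run GH library or the cohort 1 Sed GH library (adjusted p up to 0.0511). Cry1 was higher in inhibitory nuclei in 5 of 6 libraries, by 0.43 ± 0.12 (adjusted p = 0.00434), and lost its call after the subtraction (adjusted p = 0.11). Clock differed by -0.06 ± 0.05 (adjusted p = 0.33), and by -0.24 after the subtraction (adjusted p = 0.00965), and Nr1d2 by 0.13 ± 0.06 (adjusted p = 0.0935).

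**Figure D2:**
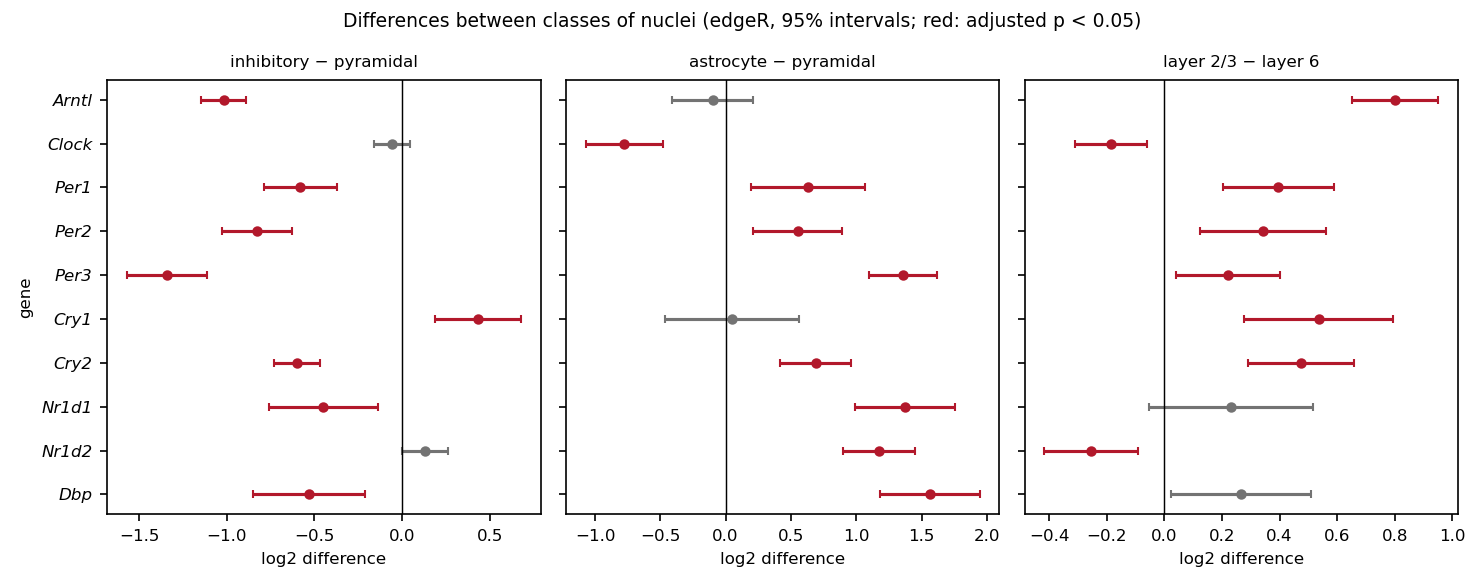
Fitted log2 differences (x axis) of the clock genes (y axis) between classes of nuclei in 6 libraries, with 95% intervals that are not adjusted for the number of genes and red marking an edgeR adjusted p under 0.05. Per3 and Dbp lie right of 0 in astrocytes and left of 0 in inhibitory nuclei relative to pyramidal nuclei, Clock lies left of 0 in astrocytes, and Arntl is the member farthest right in layer 2/3 relative to layer 6.

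Within the pyramidal class, superficial and deep nuclei also differed. Layer 2/3 nuclei exceeded layer 6 nuclei in 6 members (Arntl, Cry1, Cry2, Per1, Per2 and Per3) and were lower in 2 (Nr1d2 and Clock), against 22.8% of 14433 genes called higher and 18.3% called lower, with a median log2 difference of 0.30 over the members and 0.03 over all genes. Arntl was higher in layer 2/3 in 6 of 6 libraries, with within-library log2 ratios of 0.54 to 0.98 and a fitted difference of 0.80 ± 0.07 (edgeR adjusted p = 1.9e-07). Cry1 differed by 0.54 ± 0.12, Cry2 by 0.48 ± 0.09 and Per1 by 0.40 ± 0.09. The calls of Arntl, Cry2 and Per1 held under all 14 alternatives, and that of Cry1 was lost after the subtraction of free RNA (adjusted p = 0.0948).

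The smaller layer differences were less firm. Per2 differed by 0.34 ± 0.10 and Per3 by 0.22 ± 0.08 (edgeR adjusted p = 0.0143 and 0.0468), and their calls were lost under 3 and 7 of 14 alternatives. Either cohort 1 library was enough to lose both when left out. Clock was lower in layer 2/3 in 6 of 6 libraries, by -0.19 ± 0.06 (adjusted p = 0.0185), and lost its call without the Sed SI library or without a filter on low counts (adjusted p up to 0.109). Nr1d2 was lower in 6 of 6 libraries, by -0.25 ± 0.08 (adjusted p = 0.0149), and lost its call without the Run GH or Run SI library of cohort 2. After the subtraction it turned to 0.047 (adjusted p = 0.869). Dbp (0.27 ± 0.11; adjusted p = 0.0744) and Nr1d1 (0.23 ± 0.13; adjusted p = 0.187) were not called. Dbp was called without a filter on low counts (0.29; adjusted p = 0.0374) and without the cohort 2 Sed GH library (0.30). The estimated share of free RNA was 39.9 to 61.3% in layer 6 nuclei and 16.7 to 34.7% in layer 2/3 nuclei.

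The other glial classes were thin, with 11 to 74 microglia and 10 to 65 oligodendrocytes per library. In oligodendrocytes 4 members were lower than in pyramidal nuclei, Per2 (-1.84 ± 0.46), Arntl (-1.45 ± 0.33), Cry2 (-1.22 ± 0.33) and Per3 (-1.04 ± 0.34), and none was higher, against 23.1% of 14492 genes called lower and 8.45% called higher. In microglia Arntl (-1.46 ± 0.33), Per2 (-1.34 ± 0.45) and Cry2 (-1.16 ± 0.33) were lower and none was higher, against 17.6% of 14962 genes called lower and 13% called higher. The medians of all genes were -0.52 and -0.25 in these comparisons and those of the members -0.42 and -1.12. The balance of calls depended on the scaling: DESeq2 called 1351 genes higher and 1921 lower in oligodendrocytes against 1225 and 3345 with edgeR, and 2172 higher and 1426 lower in microglia against 1952 and 2638, and its all-gene medians were 0.26 and 0.28 higher. Over the alternatives, the Arntl, Per2 and Cry2 calls in oligodendrocytes held, Per3 there was lost under 3 of 14, and all 3 microglial calls were lost with another clustering and those of Per2 and Cry2 also with DESeq2, with adjusted p up to 0.101 over the 14 alternatives. Leaving out the cohort 1 Run GH library lost Per2 in microglia. Summed over the libraries, Arntl was counted with 38 UMIs in oligodendrocytes and 25 in microglia. The 7 microglial markers and the 6 oligodendrocyte markers summed highest in their own class. Microglia also held inhibitory markers at 603 to 3976 CPM and astrocyte markers at 690 to 4704 CPM, against 1988 to 2971 CPM of their own, and oligodendrocytes held inhibitory markers at 1178 to 3150 CPM with an estimated free-RNA share of up to 64.8%. After subtraction of free RNA 4 of 9 members tested were called lower in oligodendrocytes and 3 of 8 in microglia, and none higher. The shares of all genes called in those fits are not given here, so no excess is read from these counts. The pyramidal marker Tbr1 was at 0 in microglia.

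Over the 10 finer classes with at least 20 nuclei in every library, astrocytes ranked first for 7 members and last for Clock. Mean ± SD over 6 libraries put Per3 at 174 ± 55.3 CPM in astrocytes, 80.3 ± 26.2 in deep-layer nuclei with Oprk1, Rxfp1 and Nr4a2 as their markers, 69.4 ± 16.6 in layer 2/3 and 22.0 ± 4.88 in PV interneurons, the lowest class. Arntl ran from 111 ± 18.2 CPM in layer 2/3 over 90.5 ± 35.2 in astrocytes to 40.3 ± 18.1 in SST interneurons. Clock ran from 134 ± 22.0 in the class named layer 5 to 69.3 ± 7.92 in astrocytes. That class held 1568 nuclei of clusters led by Tshz2 and need not cover all of layer 5. Another 13759 pyramidal nuclei were given no layer, and the layer 5 marker Deptor was among the leading genes of a cohort 1 cluster of these. In them Clock stood at 101 ± 17.7 CPM. Of the 90 pairs of neighbours in these orders, 5 differed by more than the sum of their SDs: astrocytes against the next class for Per3, Cry2, Nr1d1 and Nr1d2, and astrocytes against the class above them for Clock. All other neighbours did not differ beyond their spread. Cry1 was the member led by interneurons, with PV first at 18.1 ± 6.08 CPM and NPY next at 17.0 ± 8.49, though the classes overlapped.

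**Figure D3:**
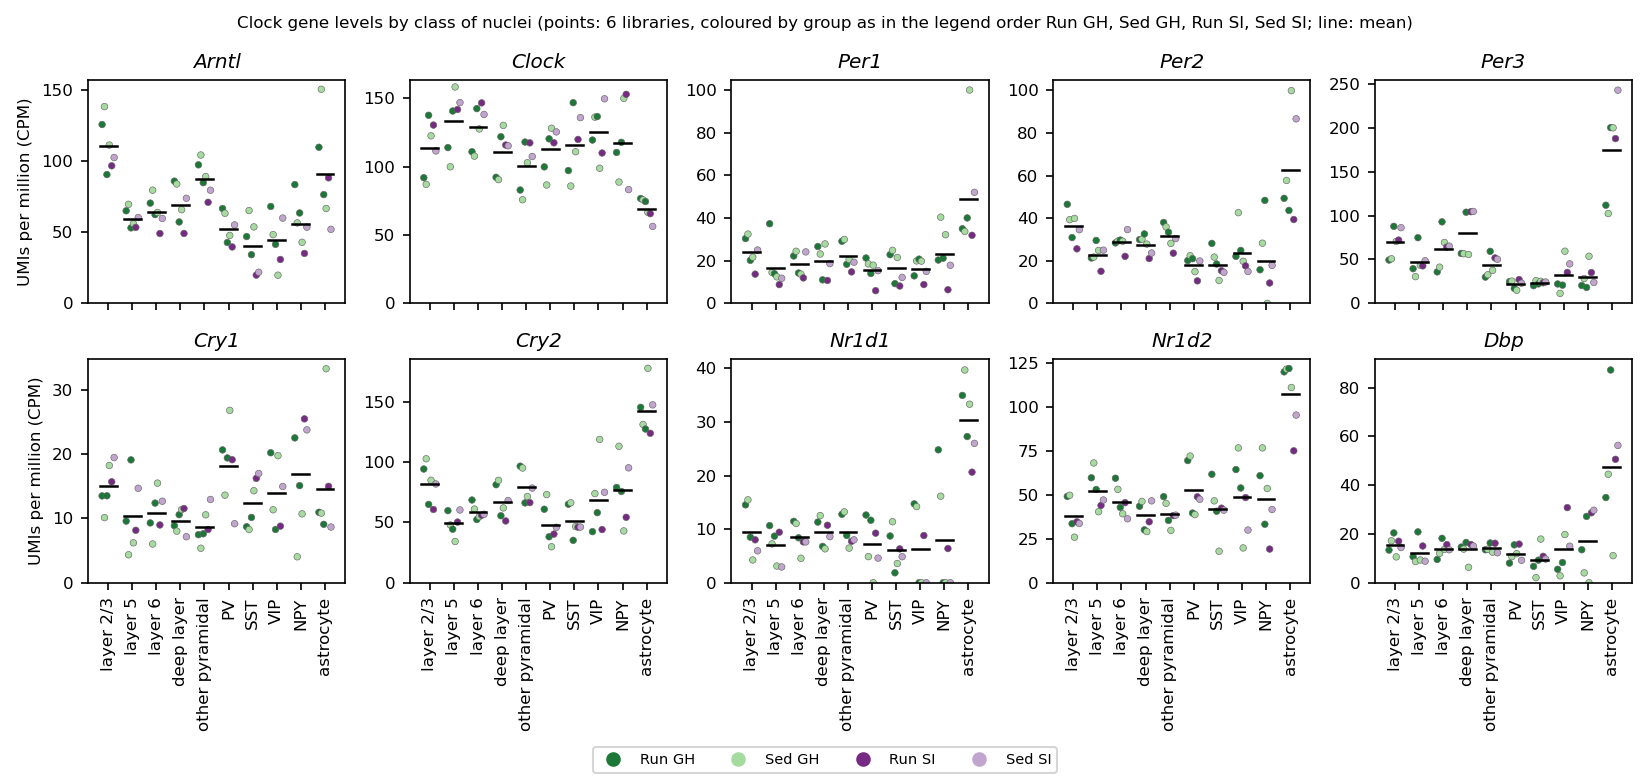
Level of each clock gene in CPM (y axis) in the 10 classes with enough nuclei (x axis), with 1 point per library, coloured by group, and a line at the mean of the 6 libraries. Astrocytes stand above the other classes for Per3, Cry2, Nr1d1 and Nr1d2 and below them for Clock.

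Whether the mother's running or the males' own housing altered the clock was addressed within each class. No member was called between Run and Sed or between SI and GH in pyramidal, inhibitory or astrocyte nuclei, with cohort and the other condition in the edgeR model. In pyramidal nuclei 0% of 17954 genes were called for either condition, with 1324 genes for Run and Sed and 166 for SI and GH at an unadjusted p under 0.05, and DESeq2 called 50 and 0 genes. In inhibitory nuclei 0.0929% of 12918 genes were called for Run against Sed (DESeq2 15 genes) and 0% for SI against GH (144 genes at an unadjusted p under 0.05, DESeq2 0). In astrocytes, where Cry1 was too sparse to be tested, 0.105% of 8537 genes were called for Run against Sed and 0.0234% for SI against GH (DESeq2 2 and 0 genes).

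The intervals show how large a difference these 6 libraries could have missed. For Run against Sed in pyramidal nuclei the largest fitted difference was that of Per1, -0.32 with a 95% interval of -0.72 to 0.07, and no member's interval reached beyond -0.72 or 0.57 (Dbp). For SI against GH the intervals reached from -0.67 (Per2) to 0.75 (Cry1). In inhibitory nuclei the widest reached from -1.05 (Per1) to 1.57 (Nr1d1) for Run against Sed, and in astrocytes from -1.19 (Per2) to 0.60 (Dbp). For SI against GH they reached from -1.46 (Per1) to 1.61 (Nr1d1) in inhibitory nuclei and from -1.39 (Nr1d1) to 0.74 (Per2) in astrocytes.

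The Run and Sed ratios of several members were not alike in the 3 pairs of libraries, a difference that was not itself tested. As plain ratios of libraries in pyramidal nuclei, Per1 in Run relative to Sed was 0.02 in cohort 1 GH, -0.23 in cohort 2 GH and -0.64 in cohort 2 SI on the log2 scale, with exact 95% intervals of -0.10 to 0.15, -0.47 to 0.01 and -0.84 to -0.44 that cover counting error only. Cry1 went from 0.50 in cohort 1 to -0.30 and -0.47 in cohort 2, and Cry2 from 0.05 to -0.20 and -0.28. Arntl was lower in Run in 3 of 3 pairs (-0.03, -0.17 and -0.21), and Clock (0.04, 0.16 and 0.13) and Nr1d2 (0.02, 0.27 and 0.02) were higher in 3 of 3. How many of all genes keep a single direction in the 3 pairs was not counted. Leaving out either cohort 1 library, so that the Run and Sed difference rested on cohort 2, called 4 members lower in Run: Per1 at -0.54, Cry1 at -0.48, Cry2 at -0.33 and Arntl at -0.28 (edgeR adjusted p of 0.00452 to 0.0281), where 2537 and 2589 genes were called in all. Each of these fits compared 2 Run with 2 Sed libraries with 1 residual degree of freedom. The members called are to be read against the genes called in all, where the fit of all 6 libraries tested 17954. Leaving out a single cohort 2 library, each in turn, called 0 members and 0 genes.

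Dbp and Nr1d1 also differed from pair to pair. Dbp in pyramidal nuclei was -0.13 in Run relative to Sed in cohort 1, 0.62 in cohort 2 GH and 0.31 in cohort 2 SI. Nr1d1 was -0.01, 0.61 and 0.15 in the same pairs. The fitted differences were 0.21 ± 0.15 for Dbp and 0.18 ± 0.15 for Nr1d1 (edgeR adjusted p = 0.762 and 0.79). For SI relative to GH, Per2 was -0.47 among Run and 0.01 among Sed libraries, and Per3 -0.30 and 0.36, and the fitted differences were -0.21 ± 0.19 and 0.02 ± 0.17.

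**Figure D4:**
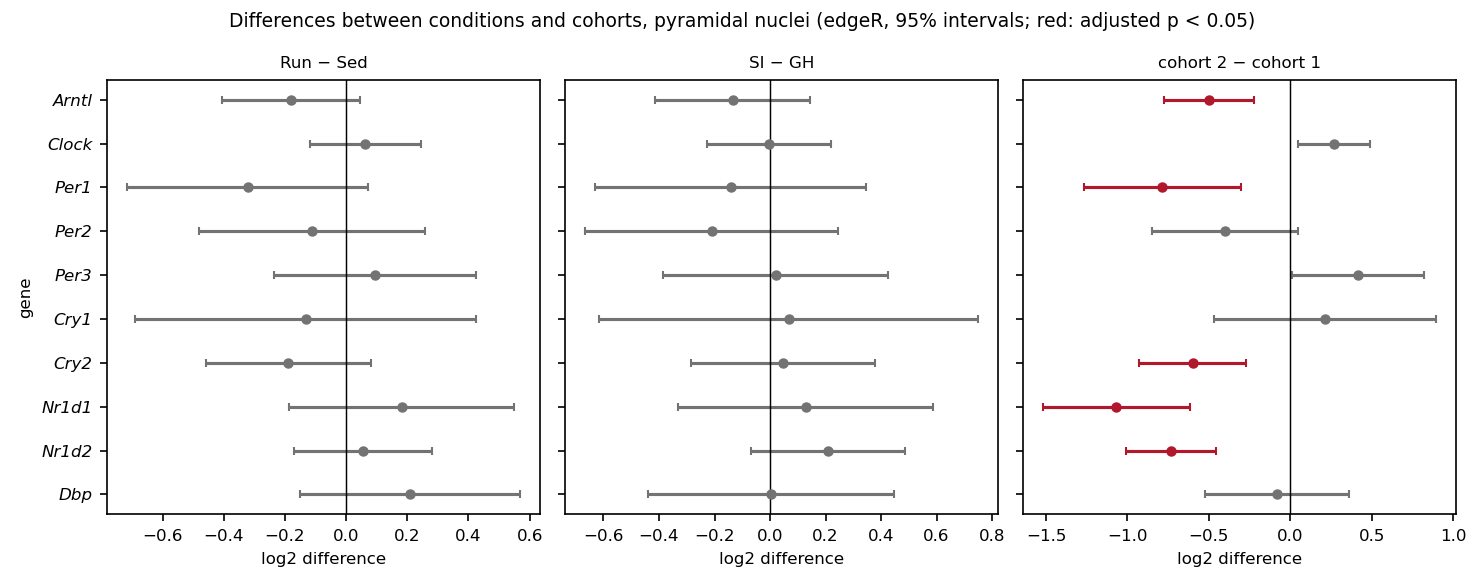
Fitted log2 differences (x axis) of the clock genes (y axis) in pyramidal nuclei of 6 libraries for Run minus Sed, SI minus GH and cohort 2 minus cohort 1, with unadjusted 95% intervals and red marking an edgeR adjusted p under 0.05. No member is red for either condition, and 5 members are red and left of 0 for cohort.

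Members were called between the cohorts but not between the conditions. In pyramidal nuclei 5 members were lower in cohort 2 (Nr1d1, Per1, Nr1d2, Cry2 and Arntl) and none was higher, against 17.9% of 17954 genes called lower and 20.2% called higher, with a median log2 difference of -0.45 over the members and -0.01 over all genes. Nr1d1 differed by -1.07 ± 0.19, Per1 by -0.79 ± 0.20, Nr1d2 by -0.73 ± 0.11, Cry2 by -0.60 ± 0.14 and Arntl by -0.50 ± 0.11 (edgeR adjusted p of 0.00536 to 0.0249). Clock (0.27 ± 0.09; adjusted p = 0.062), Per3 (0.42 ± 0.17; adjusted p = 0.0937), Per2 (-0.40 ± 0.19; adjusted p = 0.134), Cry1 (0.22 ± 0.28) and Dbp (-0.08 ± 0.18) were not called. Housing is in the model and SI occurs in cohort 2 alone. With no library left out, the fitted cohort differences of every class thus rest on the GH libraries of both cohorts. The SI libraries enter through the maternal term and the spread. The cohorts differed in testing history and in the choice of males by rank, made in cohort 1, and were profiled in separate experiments. These differences cannot be told apart from each other or from the hour of collection, which is not given.

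The firmness of these pyramidal calls differed by gene. Nr1d1 kept its call in 16 alternatives, with a difference of -0.36 over all barcodes as the smallest, but kept too few UMIs to be tested after the subtraction of free RNA, in which it stood at 32.4 to 46.4 CPM against 5.58 to 13.2 CPM in pyramidal nuclei, so that the part of free RNA in its difference was not tested. Arntl was lost without any of the 4 cohort 2 libraries and Cry2 without 3 of them (Run GH, Sed GH and Run SI), and Per1 without the Run GH or the Sed GH library of cohort 2, with adjusted p up to 0.199 for Arntl and 0.131 for Cry2. With the GH libraries alone, 3 members were called, Arntl and Cry2 not among them. After subtraction of the free-RNA profile, 0 of 15503 genes were called (3581 at an unadjusted p under 0.05), Per1 turned to 0.35, Nr1d2 stood at -0.37 (adjusted p = 0.367), and 8 of the 10 members kept enough UMIs to be tested. The estimated share of free RNA moved with cohort, as did 27 markers of other classes, which summed to 772 and 740 CPM in pyramidal nuclei of cohort 1 and 576 to 629 CPM in cohort 2.

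The layers named within the pyramidal class also differed in share by cohort, but each cohort was clustered and named apart. In cohort 1, Gm40331, Gm42953 and Rspo1 were among the leading genes of a cluster of 1256 nuclei named layer 2/3. In cohort 2 they were among those of a cluster of 3848 nuclei that was given no layer. The layer 2/3 classes of the cohorts may thus hold unlike nuclei, and a change in make-up was not tested. Layer 2/3 gave 2581 of 6230 and 1314 of 4093 pyramidal nuclei in the cohort 1 Run GH and Sed GH libraries and 2087 of 7678, 1368 of 4897, 1586 of 6695 and 1161 of 4059 in cohort 2. Within the nuclei named layer 2/3 the cohorts did not overlap for Arntl (126 to 138 CPM in cohort 1, 90.5 to 111 CPM in cohort 2), Cry2 (94.2 to 103 and 60.7 to 84.9 CPM) or Per1 (30.4 to 32.4 and 13.7 to 25.0 CPM). Within layer 6 they did not overlap for Arntl (70.4 to 79.5 and 49.0 to 63.8 CPM) or Cry2 (61.0 to 68.5 and 52.3 to 56.7 CPM) but did for Per1 (22.2 to 24.4 and 11.9 to 24.1 CPM). Nr1d1 and Nr1d2 were lower in all 4 cohort 2 libraries within both layers. Clock and Per3 were higher there without overlap. Clock stood at 87.1 to 92.0 and 112 to 138 CPM in layer 2/3 and at 108 to 111 and 128 to 147 CPM in layer 6. Per3 stood at 49.4 to 50.8 and 70.5 to 87.7 CPM, and at 35.8 to 41.2 and 64.1 to 92.8 CPM. Cry1 was higher in layer 2/3 by a narrow gap (10.1 to 13.51 and 13.53 to 19.5 CPM). How many of all genes separate by cohort within a layer was not counted.

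Cohort differences were also called in the other classes. In inhibitory nuclei 4 members were lower in cohort 2, Nr1d1 (-1.604 ± 0.45), Nr1d2 (-0.93 ± 0.19), Cry2 (-0.75 ± 0.19) and Arntl (-0.61 ± 0.20), against 16.5% of genes called lower and 19.8% called higher, and of these Nr1d2 held under all 15 alternatives. Without the cohort 2 Run GH library the calls of Nr1d1 and Arntl were lost, and without the cohort 1 Run GH library that of Arntl (adjusted p up to 0.109 for Nr1d1 and 0.511 for Arntl). Nr1d1 there rested on 54 and 25 UMIs in cohort 1 and 17, 1, 25 and 5 in cohort 2. After subtraction of free RNA the inhibitory calls of Cry2 and Arntl were lost, and Nr1d1 kept too few UMIs to be tested. With at least 1000 genes per nucleus the call of Arntl was lost. In astrocytes Per3 (0.85 ± 0.23) and Dbp (0.84 ± 0.33) were higher in cohort 2 and Arntl was lower (-0.79 ± 0.27), against 16.7% of genes called higher and 13.8% lower. The calls of Per3 and Arntl were lost without the cohort 2 Run GH library, and that of Arntl also without either Sed GH library (adjusted p up to 0.421 for Per3 and 0.257 for Arntl). Dbp lost its call under 11 of 15 alternatives and turned to -2.15 without the cohort 2 Run GH library. All of these astrocyte calls were lost after subtraction of free RNA, and those of Per3 and Arntl also with at least 1000 genes per nucleus. DESeq2 called 0 members in astrocytes and 1 in inhibitory nuclei, with 854 and 2203 genes called in all.

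Whether a class difference itself changed with cohort was tested after the data had been seen. The term for astrocytes against pyramidal nuclei called Per1, with a change of 1.21 ± 0.30 from cohort 1 to cohort 2 (edgeR adjusted p = 0.00203), against 6.14% of 15973 genes called in either direction. The log2 ratio of Per1 in astrocytes to pyramidal nuclei was 0.28 and 0.24 in the cohort 1 libraries and 1.21, 2.29, 1.24 and 1.31 in those of cohort 2, without overlap. These rest on 51 and 28 astrocyte UMIs of Per1 in cohort 1 and on 22, 9, 17 and 12 in cohort 2. Free RNA held more Per1 than pyramidal nuclei did in 6 of 6 libraries, and the term was not refitted after its subtraction. The call was lost without either cohort 1 library (adjusted p up to 0.207). For inhibitory against pyramidal nuclei the term called Dbp, with 0.91 ± 0.25 (adjusted p = 0.0378), against 3.27% of 15684 genes, and the call was lost in 5 of the 6 fits that left out a library.

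Counted over every barcode of a library, nucleus or not, the cohort difference of the output genes changed. In such sums fewer cells of a type and less RNA per cell cannot be told apart. Dbp stood at 19.0 and 14.7 CPM of all UMIs in the cohort 1 Run GH and Sed GH libraries and at 45.4, 42.8, 45.3 and 47.5 CPM in cohort 2, with no overlap, and differed by 1.00 between the cohorts (edgeR adjusted p = 0.000704). Kept nuclei held 24.0% and 18.7% of the Dbp UMIs in cohort 1, against 32.9% and 19.0% of all UMIs, and 16.2 to 25.4% in cohort 2, against 56.4 to 61.9% of all UMIs. That fit scales the libraries by TMM, so its differences are relative to the bulk of genes and not to the library total. On that scale Clock was called at -0.37 (adjusted p = 0.011) and Nr1d1 at -0.36, although the CPM of both overlapped between the cohorts: Clock stood at 102 and 100.2 CPM in cohort 1 and 98.7 to 108 CPM in cohort 2, and Nr1d1 at 21.4 and 16.2 CPM and 18.2 to 21.7 CPM. In all, 8 members were called, with Dbp the member that was higher. That fit called 11980 genes in all, against 6853 in pyramidal nuclei, and the count of members is to be read against that. Mitochondrially encoded transcripts, which lie outside the nucleus, moved with Dbp: 1313 and 590 CPM in cohort 1 against 9693 to 17846 CPM in cohort 2. Their part in the result was not tested.

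The ratio of Dbp to Arntl within a library does not depend on the library total. In pyramidal nuclei its log2 value was -2.99 in cohort 1 Run GH and -2.89 in Sed GH, and -2.15, -2.94, -2.12 and -2.64 in cohort 2. The cohort 2 Sed GH library, with 112 Dbp UMIs, lay with cohort 1. In inhibitory nuclei the ratio was -2.98 and -3.41 in cohort 1 and -1.58, -1.85, -0.94 and -1.87 in cohort 2, so that the cohorts did not overlap. Free RNA, in barcodes under 100 UMIs, showed the same separation, with -1.06 and -1.56 in cohort 1 and 0.22, 1.36, 0.58 and 1.26 in cohort 2, and its part in the ratio of nuclei was not tested. Over all barcodes it was -2.12 and -2.43 in cohort 1 and -0.47, -0.64, -0.32 and -0.35 in cohort 2. There all 4 cohort 2 libraries lay above both cohort 1 libraries. In astrocytes the ratio was -1.65 and -1.76 in cohort 1 and 0.19, -2.58, -0.80 and 0.12 in cohort 2. The exact 95% interval of the Sed GH library of cohort 2 spanned -8.11 to 0.46, from 1 Dbp and 6 Arntl UMIs.

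**Figure D5:**
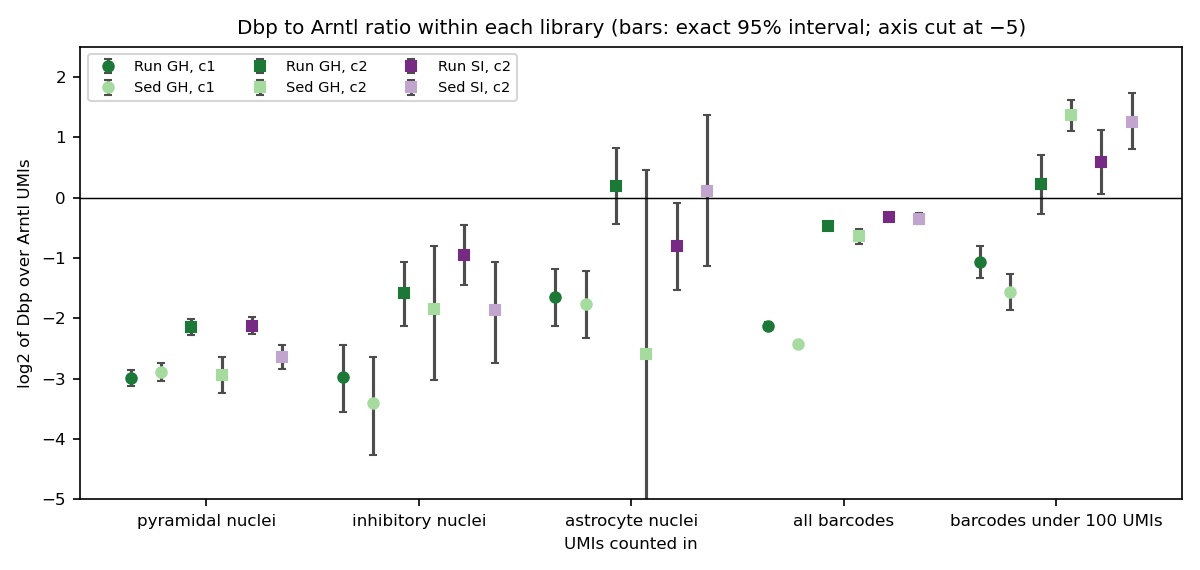
Log2 ratio of Dbp to Arntl UMIs (y axis) within each library, in 3 classes of nuclei, in all barcodes and in barcodes under 100 UMIs (x axis), with exact 95% intervals that cover counting error only. Over all barcodes the cohort 1 libraries lie at -2.12 and -2.43 and the cohort 2 libraries between -0.64 and -0.32, while pyramidal nuclei show a narrower gap with the cohort 2 Sed GH library beside cohort 1.

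Further genes of the clock pathway were described from a list of 21, of which 20 were in the table. In astrocytes against pyramidal nuclei 10 of the 20 were higher and 2 lower, against 27.4% and 26.4% of all genes. The ROR activators Rorb (3.45) and Rora (2.02), which compete with REV-ERB at RORE sequences, were among them, with the E-box repressors Bhlhe40 (1.31) and Bhlhe41 (1.21), the PAR bZIP relatives of Dbp, Hlf (1.06) and Tef (0.84), and Fbxl21 (1.30) and Cipc (0.36), while Arntl2 (-0.56) and Btrc (-0.62) were lower. Ciart (0.40) and Npas2 (-0.33), a relative of Clock, were not called. The list median was 0.38 against 0.05 for all genes.

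In inhibitory nuclei 10 of 19 of these genes were lower than in pyramidal nuclei and 3 higher, against 24.4% and 28.7% of all genes. Among the lower were Rorb (-2.24), Npas2 (-1.86), Bhlhe40 (-1.49), Hlf (-1.26), Ciart (-0.86), Bhlhe41 (-0.76), Usp2 (-0.65), Cipc (-0.59) and Tef (-0.44), and higher were Fbxl21 (1.27), Timeless (0.75) and Rora (0.25). The list median was -0.30 against 0.06 for all genes. In layer 2/3 against layer 6, 9 of 18 were higher, led by Bhlhe40 (2.02), Rorb (1.28), Hlf (0.71), Rora (0.58), Bhlhe41 (0.55), Cipc (0.52) and Npas2 (0.51), then Usp2 (0.43) and Arntl2 (0.34), and 4 were lower, among them Csnk1e (-0.63), Nampt (-0.54) and Btrc (-0.19). Of all genes 22.8% were higher and 18.3% lower there. The list median was 0.36 against 0.03, and Ciart (0.37) and Tef (0.08) were not called. In oligodendrocytes Cipc (1.23) was higher of 18, and Npas2 (-2.30), Bhlhe40 (-1.63), Arntl2 (-1.57), Rora (-1.37), Hlf (-1.23), Btrc (-0.85) and Rorb (-0.81) were lower (list median -0.73), against 8.45% of all genes higher and 23.1% lower. In microglia Csnk1e (0.84) was higher of 19, and Npas2 (-1.86), Arntl2 (-1.72), Hlf (-1.23) and Btrc (-0.75) were lower (list median -0.32), against 13% higher and 17.6% lower.

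Between cohorts 8 of 19 of these genes were lower in cohort 2 pyramidal nuclei and none was higher, against 17.9% and 20.2% of all genes, with a list median of -0.30 against -0.01. Among them were Hlf (-1.12), Rora (-1.12), the casein kinase gene Csnk1e (-0.99), Nampt (-0.59), Npas2 (-0.54), Tef (-0.44) and Btrc (-0.37). Bhlhe40 (-0.29), Bhlhe41 (-0.04), Ciart (-0.30) and Rorb (0.21) were not called. In inhibitory nuclei 5 of 18 were lower (Csnk1e -1.05, Hlf -0.93, Rorb -0.84, Npas2 -0.83 and Rora -0.77) and none higher, against 16.5% and 19.8% of all genes. In astrocytes Bhlhe40 was higher (1.16) and Btrc lower (-0.83) of 15, against 16.7% and 13.8% of all genes. None was called for Run against Sed or SI against GH in any of the 3 classes. The class by cohort term called 3 of 20 in astrocytes (Bhlhe40 1.17, Rora 0.80 and Hlf 0.67), against 6.14% of all genes, and 1 of 19 in inhibitory nuclei (Rorb -1.09), against 3.27%.

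Genes that respond to signals known to act on the clock were counted from 3 further lists. In pyramidal nuclei 20.2% of all genes were higher and 17.9% lower in cohort 2, and the counts of these short lists are to be read against that. Of 9 glucocorticoid-responsive genes tested, 4 were higher in cohort 2 (Mt1 3.34, Cdkn1a 1.21, Mt2 1.202 and Errfi1 1.09) and 3 lower (Zbtb16 -1.19, Fkbp5 -0.62 and Sgk1 -0.34), and of 7 temperature-responsive genes 3 were higher (Hspa8 2.03, Hspa5 1.09 and Hsp90aa1 0.76) and Hsph1 was lower (-0.54). Of 10 immediate early genes, markers of recent neuronal activity, 3 were higher (Ier2 1.08, Junb 0.90 and Arc 0.53) and 2 lower (Fosb -1.14 and Npas4 -0.66). The list medians were 0.78, 0.42 and -0.30. In inhibitory nuclei, where 19.8% of all genes were higher and 16.5% lower, the glucocorticoid list had 3 of 8 higher and 1 lower, the temperature list 3 of 7 higher and none lower and the immediate early list 1 of 7 higher and none lower. In astrocytes, where 16.7% were higher and 13.8% lower, these counts were 2 of 8 higher and 1 lower, 4 of 6 higher and none lower, and 1 of 3 higher and none lower. Between classes the shares of all genes called were 27.4% higher and 26.4% lower in astrocytes, 28.7% and 24.4% in inhibitory nuclei and 22.8% and 18.3% in layer 2/3. The immediate early list had 4 of 10 genes lower in astrocytes and 5 of 10 lower in inhibitory nuclei than in pyramidal nuclei, with none higher, and 4 of 9 higher and 1 lower in layer 2/3 than in layer 6. The glucocorticoid list had 5 of 10 higher and 2 lower in astrocytes, 4 of 9 higher and 1 lower in inhibitory nuclei and 1 of 9 each way between layers. The temperature list had 3 of 7 higher and none lower in astrocytes, 5 of 7 higher and 1 lower in inhibitory nuclei and 1 of 7 higher in layer 2/3. No gene of these 3 lists was called for Run against Sed or SI against GH, and their part in the cohort difference of the clock genes was not tested.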

How the data were processed

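Nuclei from the prelimbic cortex were profiled with the Chromium 3′ v3 assay in 6 libraries. The authors deposited raw UMI counts per gene and barcode for all barcodes, made with Cell Ranger 6.0.0 on mm10 with introns included, per their methods and processing notes. The matrix headers name an earlier Cell Ranger version, so how intronic reads were counted rests on the methods alone. Barcodes with 500 to 4000 genes and at most 1% mitochondrial UMIs (the limits of the study) were kept if their UMIs also reached the 99th percentile divided by 10. Each cohort was clustered (scanpy 1.11.5, leidenalg 0.10.2; Pearson residuals of 3000 genes with theta 100, 35 components, 20 neighbours, resolutions 0.6 and 1) without the clock genes, and clusters were named from fixed markers. 23 of 67 clusters, with 2668 nuclei, stayed unnamed and were left out of the classes. Doublets were kept, and scrublet marked 1.09 to 6.75% per library, removed in an alternative.

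Counts were summed per library and class and tested with edgeR 4.0.16 (quasi-likelihood, TMM, filterByExpr, R 4.3.3), with Benjamini-Hochberg adjustment over all genes tested and a threshold of 0.05. Condition models held Run or Sed, SI or GH, and cohort (2 residual degrees of freedom), and class models held class and library (5). The cohort number in the labels pairs libraries, and the cohort difference of Run GH and that of Sed GH correlated at r = 0.633 over 17954 genes. Intervals of single counts are exact Poisson or, for ratios, exact binomial at 95%, and cover counting error only. The share of free RNA is an upper limit taken from genes of other classes against barcodes under 100 UMIs. Tests were tried on simulated counts for Run against Sed in pyramidal nuclei, where 60% of 50 genes changed 2-fold and 94% of those changed 4-fold were recovered, with 7 false calls among 17954 genes under a trended dispersion. With a dispersion drawn per gene these were 56%, 92% and 37 false calls. For Run against Sed in astrocytes 42% of genes changed 2-fold were recovered, with 2 false calls among 8537 genes. DESeq2 1.42.0, other normalization, filters, clustering and nuclei, subtraction of free RNA, the fit without the cohort term, all barcodes and each library left out were the alternatives. The members and all gene lists were chosen with earlier results of these data known. The rule for named genes took all 10 members, the other listed genes past the threshold and, called or not, Npas2, Ciart, Tef, Hlf, Bhlhe40, Bhlhe41, Rora and Rorb. Some of the listed genes are counted but not reported here by name. With 1 pool per group in each cohort, the condition and cohort tests had no repeated pools within a cohort. Their p-values rest on how far the libraries depart from summed effects of cohort, maternal group and housing, and not on repeated experiments. A Run and Sed difference that changes with cohort or housing counts there as spread. The p-values of the class tests measure the spread of class differences within libraries. In some tests the spread was one shared over genes and not each gene's own. These were the condition and cohort tests of astrocytes and the class tests of microglia and oligodendrocytes. The class by cohort term for astrocytes, which called Per1, was another.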

Additional observations from a re-analysis of the deposited data

Results flagged for a closer look

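Among 30 sets of 6 libraries tested for a library that stands apart, 1 did: the log2 ratio of Dbp in astrocytes to pyramidal nuclei was -0.060 in the cohort 2 Sed GH library, against 1.41 to 2.29 in the others. It rests on 1 Dbp UMI in astrocytes. Chance alone sets a library apart in about 1 in 20 such sets.

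The cohorts differed in a class contrast for 2 members, by a term tested after the data had been seen. The difference of Per1 between astrocytes and pyramidal nuclei was larger in cohort 2 by a log2 change of 1.21, and that of Dbp between inhibitory and pyramidal nuclei changed by 0.91. The Per1 call was lost without either cohort 1 library and the Dbp call in 5 of 6 fits with a library left out.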

How the results depend on the processing

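Of 45 calls of a member in a comparison, 18 held under every alternative run for them, and 6 values turned direction with a call in either fit. Another 168 changed sign while uncalled in both. Dbp turned to -2.15 between cohorts in astrocytes without the cohort 2 Run GH library (-2.15 to 1.21 over the libraries left out), Clock to -0.37 and Dbp to 1.00 between cohorts over all barcodes in place of pyramidal nuclei (relative to the TMM scaling, as the CPM of Clock overlapped between cohorts), and, after subtraction of free RNA, Per1 to 0.35 between cohorts in pyramidal nuclei, Dbp to 3.32 in inhibitory against pyramidal nuclei and Nr1d2 to 0.047 in layer 2/3 against layer 6. The cause was not tested.

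Without the cohort block that pairs the libraries, 0 genes and 0 members were called in all 6 condition comparisons, so that the block changed no call of a member. For Run against Sed, DESeq2 called 2 genes in astrocytes and 50 in pyramidal nuclei, no filter on low counts gave 46 in inhibitory and 11 in pyramidal nuclei, and 0 were called in astrocytes with at least 1000 genes per nucleus and in inhibitory nuclei after subtraction. For SI against GH in astrocytes, 0 genes were called with DESeq2 or at least 1000 genes, and 1 with cohort 2 alone, other clustering, doublets removed or the study limits alone. Between cohorts, astrocytes had 0, 1 and 0 members and 854, 995 and 694 genes called with DESeq2, at least 1000 genes and subtraction, and inhibitory nuclei 1 and 1 members and 2203 and 1157 genes with DESeq2 and subtraction. Pyramidal nuclei had 8 members and 11980 genes over all barcodes, 0 and 0 after subtraction, and 3 and 3685 with GH libraries alone. Subtraction gave 5 called members in inhibitory against pyramidal nuclei (Per3, Arntl, Per2, Cry2 and, newly, Clock) and 4 between layers (Arntl, Cry2, Per1 and Clock), and microglia had 1 member with DESeq2 and 5 with at least 1000 genes or the study limits alone. Of all genes, 53.1%, 41% and 30.7% were called in the main fits of these comparisons. The shares in class fits under these settings, or with a library left out, are not given here. Over all barcodes the mean level was 68.1 CPM for Arntl, 19.9 for Nr1d1, 51.4 for Nr1d2 and 35.8 for Dbp, and the log2 Dbp to Arntl ratio was -2.12 and -2.43 in cohort 1 and -0.47, -0.64, -0.32 and -0.35 in cohort 2.

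Leaving out each library in turn, where a lone SI library is assumed to vary like the others, gave 4 to 34 genes for Run against Sed in astrocytes, 8 to 355 in inhibitory and 0 to 2589 in pyramidal nuclei, with 0 to 4 members in the last. SI against GH gave 0 to 3 genes in astrocytes and 0 to 30 in pyramidal nuclei. Between cohorts it gave 620 to 2384 genes and 0 to 2 members in astrocytes, 2088 to 5381 and 2 to 5 in inhibitory, and 3206 to 9030 and 2 to 8 in pyramidal nuclei. Microglia had 3 to 5 members, and the class by cohort term, added after the data were seen, 0 to 2 in astrocytes and 0 to 1 in inhibitory nuclei.

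The fit with at least 1000 genes per nucleus dropped the cohort 2 Sed GH library from oligodendrocytes, which had no such nuclei. Depth limited Cry1 and Nr1d1 most, with 1707 and 1689 UMIs over all pyramidal nuclei. The study limits alone would add 74213 and 98249 barcodes in cohort 1 and 1 to 811 in cohort 2.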

Other observations

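For the 3 members with most UMIs, the genes with the most similar pattern over 60 sums of library and class (10 classes in 6 libraries, 12826 genes, log2 of CPM with 1 added) are given as a description. The sums of a library share its depth and its free RNA. Clock was most like Klhdc10 (r = 0.84), Slc25a27 (0.80) and Nrg3os (0.79). Arntl was most like Ctnnd1 (0.80), Epha4 (0.77) and Nlgn1 (0.77). Cry2 was most like Gnao1 (0.81), Clmn (0.80) and Mras (0.80).

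Further calls appeared in the cohort comparison with a library left out. Per2 (-0.63) and Per3 (0.50) were called in pyramidal nuclei without the cohort 1 Sed GH library, Per3 (0.68) without the cohort 2 Sed GH library, Cry1 (0.78) without the cohort 1 Run GH library, and Clock (0.28 and 0.26) without either cohort 1 library. In inhibitory nuclei Per1 (-0.87) was called without the cohort 1 Sed GH library.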
